A study of Mus musculus with 8 samples.

Results

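The regions described here were 226 distal Nrf2 peaks of satellite cells (muscle stem cells), found when Keap1 was absent and far from the ends of any protein-coding gene. They were chosen from the 469 peaks of the deposited Keap1-null list in a pair of steps. A member overlapped no peak of the deposited Nrf2-null list by 1 bp or more, which held for 363 peaks (77.4% of the list), and its summit lay over 10 kb from both ends of every protein-coding gene, which held for 226 of those (62.3%). Both steps used the peak calls and their positions, so these counts describe the choice and are not results. The comparison of genotypes concerns where the Nrf2 antibody enriched chromatin when Keap1 was missing, with cells lacking Nrf2 as the control.

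The study holds 8 libraries of C57BL/6J mouse cells freshly isolated from hindlimb muscle: Nrf2 ChIP (chromatin immunoprecipitation) and input, each from Keap1-null and from Nrf2-null cells, with 2 libraries in each of the 4 groups. A wild-type group is not among them. The titles label 1 library of each group bench 1 and the other bench 2, without saying what a bench was. The sources used here do not give how the null alleles were made, the age of the mice, or whether a group's libraries came from separate animals, so the difference between libraries may be technical. Each deposited list joins both ChIP libraries of a genotype and gives, per peak, the −log10 p of enrichment in a first and a second library column, and an irreproducible discovery rate (IDR), which is low for a peak that ranks high in both. Which library of the study, and so which bench, is the first is not known, nor is sequencing depth. All values per peak are the authors' own. No test over samples was possible on such joint lists, so the values below are descriptions, and peaks of a list are not replicates of a condition.

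Nrf2 (encoded by Nfe2l2) is a bZIP transcription factor that pairs with small Maf proteins and binds antioxidant response elements in front of, inside and far from genes of glutathione and thioredoxin metabolism, detoxification and NADPH supply. Keap1 is the adaptor that sends Nrf2 to degradation, so cells without Keap1 hold high Nrf2. Sites far from promoters can act as enhancers, and a linear distance does not tell which gene such a site serves.

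Most distal peaks were far from any annotated transcription start, but 4 of them overlapped the stretch from 250 bases before to 50 bases after a start listed in RefSeq (build GRCm38.p6, the assembly also called mm10). The sequences of 3 of these stretches are shown because they are the DNA under, or beside, distal summits that sit at annotated starts. Each reads 5′ to 3′ on the strand of its gene, and capitals mark matches to the core of the antioxidant response element, TGANNNNGC, on either strand.
2210408F21Rik: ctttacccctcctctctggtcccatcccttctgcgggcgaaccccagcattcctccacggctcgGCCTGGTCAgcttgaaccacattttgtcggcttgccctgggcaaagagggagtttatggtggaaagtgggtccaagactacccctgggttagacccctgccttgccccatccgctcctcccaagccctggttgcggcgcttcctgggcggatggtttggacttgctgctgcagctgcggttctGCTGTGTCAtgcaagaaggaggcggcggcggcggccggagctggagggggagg
Pacsin2: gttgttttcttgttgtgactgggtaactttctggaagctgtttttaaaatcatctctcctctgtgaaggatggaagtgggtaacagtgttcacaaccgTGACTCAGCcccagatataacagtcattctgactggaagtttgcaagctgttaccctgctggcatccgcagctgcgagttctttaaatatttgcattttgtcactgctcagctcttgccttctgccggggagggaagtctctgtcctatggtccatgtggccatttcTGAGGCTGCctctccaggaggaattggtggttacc
Gm31870: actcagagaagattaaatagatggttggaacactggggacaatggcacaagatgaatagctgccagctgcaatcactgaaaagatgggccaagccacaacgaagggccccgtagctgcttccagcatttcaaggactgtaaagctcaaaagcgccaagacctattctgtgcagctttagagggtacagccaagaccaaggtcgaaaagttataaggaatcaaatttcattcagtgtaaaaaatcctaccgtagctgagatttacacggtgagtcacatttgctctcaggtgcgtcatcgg

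The first stretch belongs to 2210408F21Rik, a long non-coding RNA gene (chr6:31220101-31220400, plus strand), and the summit of its peak lay 5 bp from the start. The peak (chromosome 6, 31220172 to 31220702) had −log10 p of 21.3 in the first and 26.8 in the second library, with an IDR of 0.00135. Its match at positions 248 to 256, read on the other strand as TGACACAGC, was centred 4 bp from the summit, whereas the match at positions 65 to 73 was not wholly inside the peak. Positions are counted from 1 at the 5′ end of the printed stretch.

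The second stretch is an annotated start inside Pacsin2, which encodes a membrane-bending protein of endocytosis (chr15:83447831-83448130, minus strand). The peak covered all 300 of its bases, the summit lay 84 bp from the start, and −log10 p was 13.3 in the first and 7.88 in the second library, with an IDR of 0.0245. The match TGACTCAGC at positions 99 to 107 was centred 64 bp from the summit; its first 7 bases are TGACTCA, the AP-1 motif, so the AP-1 and response element matches overlap there. The third stretch belongs to the non-coding gene Gm31870 (chr1:193655266-193655565, plus strand), of which 92 bases lay in a peak of 15.1 and 7.37. It had no match to TGANNNNGC and 1 match to TGACTCA, written TGAGTCA on the printed strand, 123 bp from the summit. The fourth, of the non-coding gene Gm42005 inside Coro1c, shared only 5 bases with its peak.

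Such matches are common in windows of this length. TGANNNNGC on either strand was in 41.3% of the 32851 RefSeq stretches of 300 bases, the stricter TGACNNNGC in 12.4% and TGACTCA in 5.20%. A match describes the letters of a window and does not show a bound site. Sequence of the other distal peaks was not analysed here.

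Distal peaks were split between the deep interior of genes and the space between them. The summit lay inside a protein-coding gene for 103 of the 226 (45.6%, exact 95% Clopper-Pearson interval 39.0 to 52.3) and outside for 123. Sequence over 10 kb from all protein-coding gene ends was 78.9% of the span examined. Distal peaks stood at 11.1 per 100 Mb of it, and Keap1-null-only peaks within 10 kb of a gene end at 25.2 per 100 Mb of the rest. Genes take up 36.2% of the distal sequence, so distal peaks stood at 14.0 per 100 Mb of deep gene interior and 9.51 per 100 Mb of distal intergenic sequence. The intervals of the shares cover counting error only, and the part that uneven read mapping could have in the densities was not tested. Among Keap1-null-only peaks within 10 kb of a gene end, 72 of 137 (52.6%, 43.9 to 61.1) were inside a gene. Of the 151 Nrf2-null peaks, 82.8% were distal, and 23 of those 125 were inside a gene (18.4%, 12.04 to 26.3), or 26.7% of 86 when the dense run of peaks that opens chromosome 9 was left out.

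The 103 intragenic peaks fell in 95 host genes, and the median host length over these sites was 134 kb. The distance rule itself selects long hosts, since only a gene over 20 kb can hold such a site and longer genes offer more room for one. Over all bases more than 10 kb inside a protein-coding gene's own ends, the median length of that gene was 221 kb, longer than for the peaks' hosts; the difference was not tested. The deepest site was in Pde4d, a cyclic AMP phosphodiesterase gene, 588 kb from its nearer end, and other deep sites were in Rbfox1 (449 kb), Rad51b (248 kb) and Syne1 (245 kb). For 85 intragenic sites the strand of the host was listed. Of these, 51 lay nearer the 5′ end of the host and 34 nearer the 3′ end, with a median position 44.6% of the way along the gene. This position was not computed for other peaks, and the difference between the ends was not tested.

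The rule also sets a minimum on the gaps that hold intergenic sites. The gap between the flanking protein-coding genes had a median of 226 kb and ranged from 25.2 to 3820 kb, and 39 of the 123 sites had no protein-coding gene end within 100 kb. The site farthest from a gene end was 898 kb from Nxph1, a neurexophilin gene, in a gap of 2651 kb; it was also the narrowest distal peak at 209 bp, with −log10 p of 12.5 and 7.93. The next, at 536, 510 and 509 kb, were named by Camk1g, Cntnap5a and Rgmb. Of the 123 intergenic summits, 29 (23.6%) were inside a long non-coding RNA gene, among them Pvt1, Lncpint and Platr6, which left 94 of the 226 outside every gene of the table. With any gene as host, 58.4% of distal summits were inside one, beside 57.7% of Keap1-null-only summits within 10 kb of a gene end. Of distal Nrf2-null summits 28.8% were, or 41.9% without the chromosome 9 run. The part of distal intergenic sequence that long non-coding RNA genes take up was not computed.

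**Figure D1:**
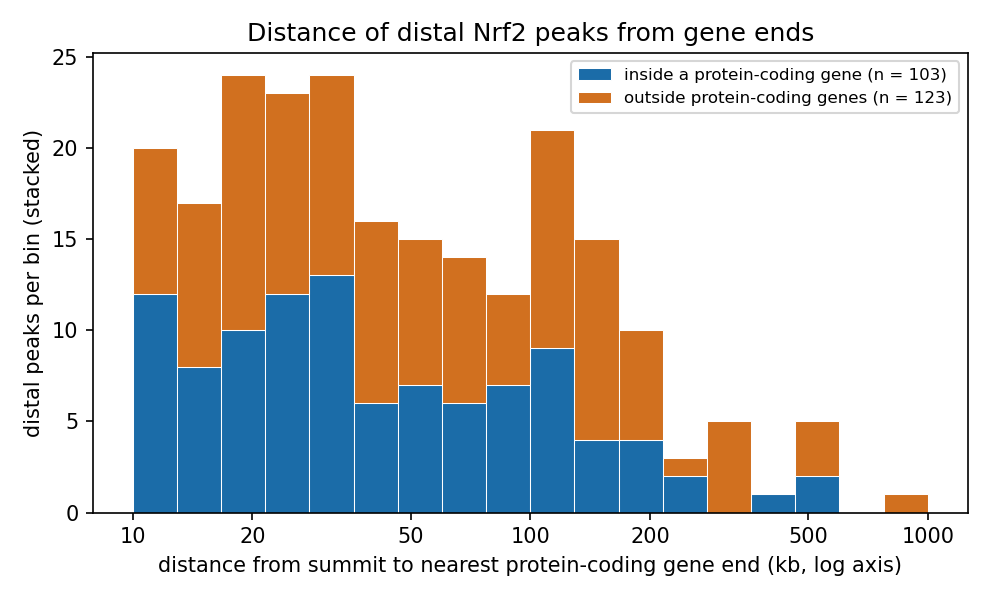
Distance in kb (log axis) from the summit of each of the 226 distal peaks to the nearest end of a protein-coding gene, as stacked counts for the 103 inside and the 123 outside such a gene. Peaks inside a gene reached 588 kb and those outside 898 kb, and 96 peaks lay over 50 kb from a gene end.

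The distance to a gene end had a median of 39.1 kb, with quartiles at 21.1 and 105 kb. Between 10 and 20 kb lay 52 peaks, between 20 and 50 kb 78, between 50 and 100 kb 35, between 100 and 200 kb 46, and beyond 200 kb 15. The median of the smaller −log10 p of both libraries was 10.6, 10.3, 12.1, 11.5 and 9.79 in these bands, in that order. Across the 226 peaks the rank correlation between the smaller −log10 p and the distance was 0.0713, a description of sites that share the same libraries.

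A distance from gene ends is not a distance from starts, since genes carry inner starts and non-coding genes were not counted by the rule. Of the 219 distal peaks on chromosomes with listed starts, 34 (15.5%) had a summit within 10 kb of a start of any gene and 5 within 1 kb, with a median of 30.1 kb. For 7 of the 16 such intragenic sites the start was an inner one of the host itself: both sites of Slc7a11, described further on, and those in Pacsin2, Pde10a, Adh7, Medag and Arntl. Near peaks, for which this was partly set by the rule, had 98 of 137 summits within 10 kb of a start.

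Peaks lay closely on both sides of the 10 kb limit. The members closest to it were in Vipr2 (10.05 kb, −log10 p of 26.4 and 28.4), Tkt (10.11 kb, 21.7 and 18.03) and Zdhhc18 (10.13 kb, 41.0 and 27.0). Peaks just short of it included those of Smad3 (9.91 kb, 10.5 and 11.1) and Otog (9.99 kb, 32.8 and 13.0). The peak of Lrp8, a lipoprotein and reelin receptor gene (chromosome 4, 107803663 to 107804228), was no member, as its summit lay inside the gene but only 1.70 kb from an end of it; its values were 52.3 and 29.4.

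Among the leading Keap1-null-only peaks the share of distal ones was somewhat below that of the whole list, a difference that was not tested. Ordered by IDR with ties set by the smaller −log10 p, the first 10 held 5 distal peaks, the first 20 held 11, the first 50 held 30 and the first 100 held 57, where 62.3% of the list was distal. An IDR of at most 0.01 was reached by 104 distal peaks (46.0%), beside 50.1% of all Keap1-null-only peaks. The median −log10 p was 16.0 in the first and 11.9 in the second library, with ranges of 8.004 to 88.0 and 6.49 to 51.2. Near peaks had medians of 18.2 and 11.4, and reached 131 and 84.9.

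The first library gave the higher value for 180 of the 226 distal peaks (79.6%, exact 95% interval 73.8 to 84.7), beside 81.5% of all Keap1-null-only peaks. The share was 80.6% inside and 78.9% outside genes. Across the distal peaks the rank correlation of both libraries was 0.540 and Pearson's r was 0.720; the list was cut by IDR, which depends on both libraries' ranks, so these numbers do not measure how well whole libraries matched.

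**Figure D2:**
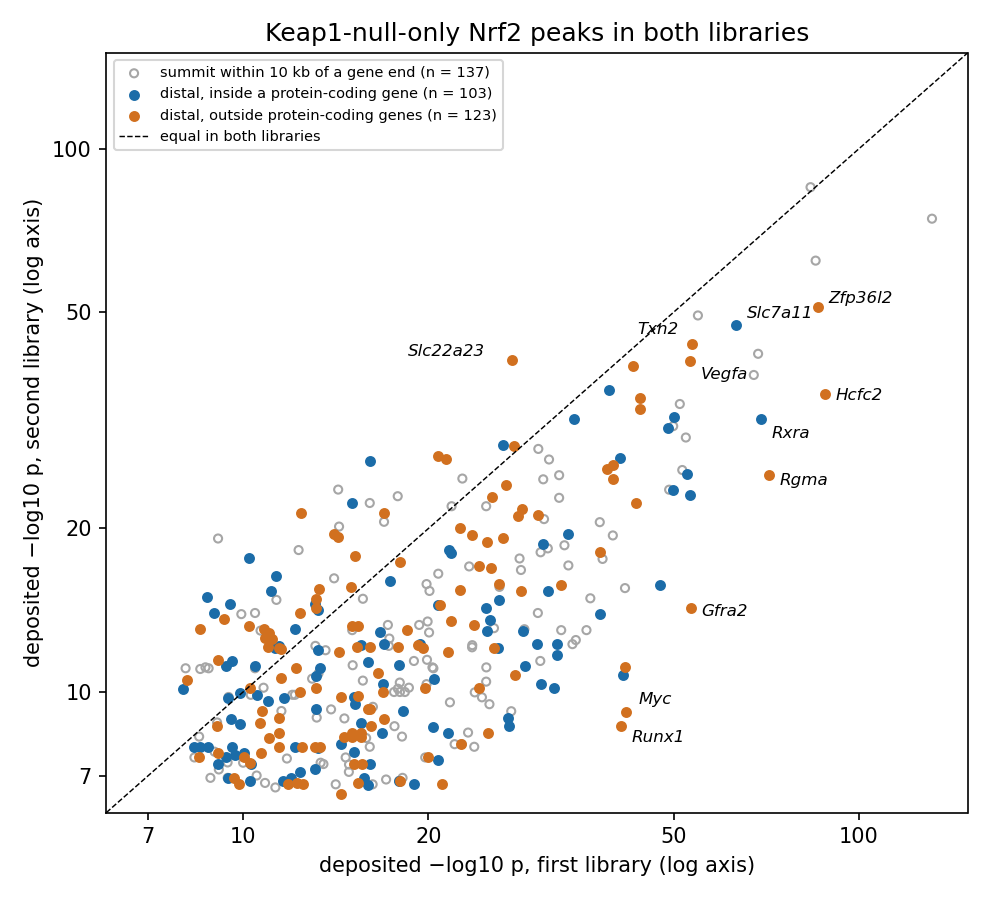
Deposited −log10 p in the first (horizontal) and second (vertical) library, both on log axes, for the 103 distal peaks inside genes, the 123 outside and the 137 peaks near a gene end; the dashed line marks equal values. Most points lie below the line, Zfp36l2 (51.2) and Slc7a11 (47.4) lead the distal peaks in the second library, and the peak of Slc22a23 is one of the few strong ones above it.

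At some distal sites the libraries were far apart. The most unequal in favour of the first were near Runx1 (41.0 and 8.68), near Myc (41.9 and 9.18), in Rnf144b (41.4 and 10.8), near Lpp (41.7 and 11.1) and near Gfra2 (53.4 and 14.3). In favour of the second they were near Myc at another site (12.4 and 21.4), in Man2a1 (10.2 and 17.6), Pfkfb4 (8.73 and 14.98), Kirrel3 (16.1 and 26.7) and Rad51b (8.98 and 14.0). Among the 20 distal peaks of lowest IDR, that near Slc22a23 (27.3 and 40.9) had the higher value in the second library, and the other 19 in the first.

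Distal peaks had a median width of 423.5 bp, with quartiles at 360 and 503 bp and a range of 209 to 953 bp. Near peaks had a median of 433 bp. Intergenic peaks had a median of 454 bp (exact binomial 95% interval 423 to 469) and intragenic ones 408 bp (382 to 421). These intervals cover counting error only and treat peaks of the same libraries as separate draws, and the difference was not tested. The medians of the smaller −log10 p were 11.1 for intergenic and 10.3 for intragenic peaks.

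**Figure D3:**
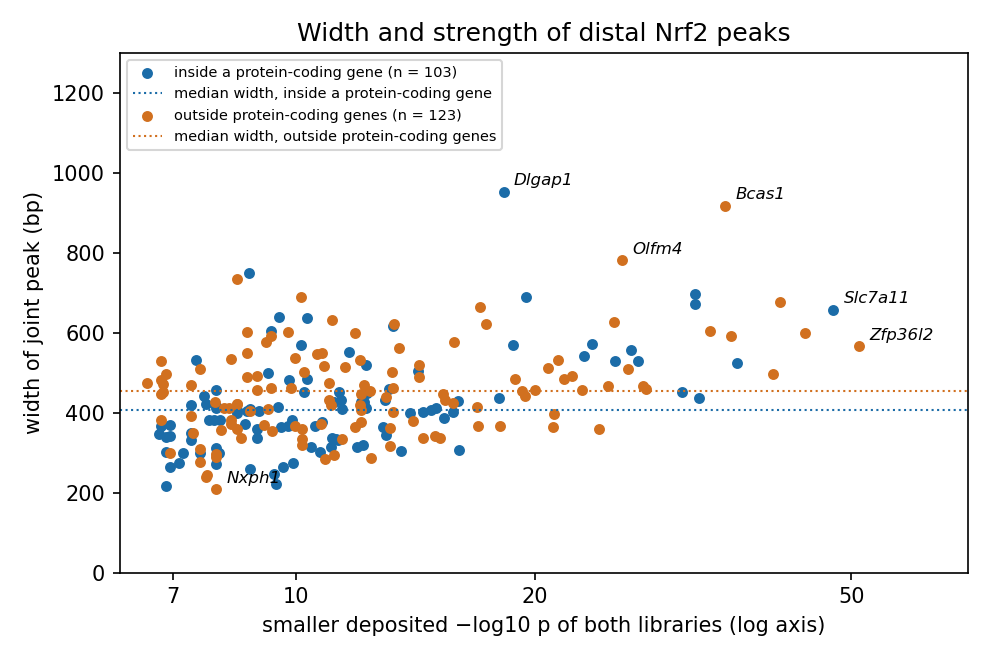
Width of the joint peak in bp against the smaller −log10 p of both libraries (log axis) for the distal peaks inside and outside genes, with dotted lines at the median widths of 408 and 454 bp. Stronger peaks tended to be wider, and the widest, in Dlgap1 (953 bp), had a smaller value of 18.3.

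Width and the smaller −log10 p had a rank correlation of 0.395 across the 226 distal peaks, a description of sites from the same libraries. The 57 strongest peaks, with a smaller −log10 p of 14.8 to 51.2, had a median width of 485 bp, and the 59 weakest (6.49 to 8.42) had 382 bp. The widest peaks were in Dlgap1, which encodes a postsynaptic scaffold protein (953 bp), near Bcas1 (918 bp) and near Olfm4, a secreted glycoprotein gene (782 bp). The narrowest after that of Nxph1 were in Arhgap21 (217 bp) and Utrn, the gene of the dystrophin homologue utrophin (222 bp).

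The strongest distal sites included those named by Slc7a11 and Txn2. Slc7a11, which encodes the cystine-glutamate antiporter that feeds glutathione synthesis, held 2 distal peaks 1.57 kb apart. The stronger, on chromosome 3 from 50437879 to 50438536, had 63.2 in the first and 47.4 in the second library, and the weaker (50436500 to 50436833) 17.9 and 11.2. Both lay over 60 kb from the ends of the 134 kb gene model, at 60.9 and 62.4 kb, yet 5.38 and 6.95 kb from an inner annotated start of the gene.

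Another strong site lay between Hcfc2 and Txnrd1 (chromosome 10, 82813987 to 82814579), at −log10 p of 88.0 and 35.3, the highest first-library value of any distal peak. Txnrd1 encodes cytosolic thioredoxin reductase, which keeps thioredoxin reduced. The gap between the genes was 38.1 kb, the summit 18.4 kb from Hcfc2 and 19.7 kb from Txnrd1, and it was inside the long non-coding RNA gene 1700028I16Rik. A Keap1-null-only peak inside Txnrd1, which is no member, lay 44.8 kb away at 131 and 74.3. Txn2, the gene of mitochondrial thioredoxin, was nearest to a site 33.1 kb away (chromosome 15, 77881717 to 77882315) at 53.5 and 43.7, with Myh9 39.8 kb to the other side.

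Weaker sites stood by further genes of redox and detoxification enzymes. Abcc1, a transporter of glutathione conjugates, had a distal peak 10.5 kb away (25.4 and 22.9) and a near one 1.84 kb from it (19.9 and 15.8). Cat, which encodes catalase, had a distal peak 21.0 kb away at 15.4 and 6.79, near the end of the list at an IDR of 0.0378, and a stronger near peak 25.8 kb from that at 30.2 and 28.0. Tkt, the transketolase gene of the pentose phosphate pathway, held a peak 15.5 kb from its start at 21.7 and 18.03. Akr1c14, an aldo-keto reductase gene, was nearest to a pair of peaks 1.01 kb apart, the closest spacing of any distal peak, at 20.9 and 14.4 and at 19.6 and 12.04.

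Of 38 canonical Nrf2 antioxidant and detoxification targets, 3 were the host or nearest gene of a distal peak, namely Slc7a11, Abcc1 and Cat, beside 0.934% of all protein-coding genes. Within 100 kb of a distal summit were 5 of the 38 (13.2%), with Txnrd1 and Abcc4 (42.9 kb) added, beside 2.32% of all genes. Of 20 genes of NADPH supply, iron and heme, Tkt alone was within 100 kb, and of 24 CNC-bZIP, small Maf, AP-1 and Keap1 pathway regulators, Bach2 alone. Bach2 encodes a CNC-bZIP repressor that can bind the same elements, and its site, 58.6 kb away, had 19.7 and 10.2. The lists were drawn up with earlier results of these data known, so these shares are descriptions.

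Sites by genes of transcriptional control were led by Rxra, the gene of the retinoid X receptor alpha, a partner of many nuclear receptors. Its site, on chromosome 2 from 27740053 to 27740749, reached 69.4 and 31.8 and was 697 bp wide. It lay 64.0 kb from the 5′ end and 22.9 kb from the 3′ end of the 86.9 kb gene, and 31.1 kb from an inner annotated start of Rxra. Of the 26 nuclear receptor and partner genes listed, Rxra alone was within 100 kb of a distal summit, beside 2.32% of all protein-coding genes. Rxra was picked for naming with earlier results known, so this hit was set in advance. The list left out Rora, also a nuclear receptor gene, which held a distal peak (27.0 and 8.68). Hdac4, a class IIa histone deacetylase gene known in muscle as a repressor of MEF2, held 3 peaks over 15.8 kb, with values of 26.0 and 12.1, 11.7 and 9.77, and 49.0 and 30.6. They lay 112, 109 and 96.0 kb from the 5′ end of the 267 kb gene, and the strongest was the one closest to that end.

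Myc, a transcription factor of growth and proliferation, named 3 sites in the 1786 kb gap between Myc and Gsdmc. They lay 138, 297 and 338 kb from Myc, with −log10 p of 12.4 and 21.4, 39.9 and 26.2, and 41.9 and 9.18. The first of these was inside the non-coding gene Pvt1. Runx1, another transcription factor gene, had 1 site inside (9.90 and 8.75) and 1 outside, 35.7 kb away (41.0 and 8.68), and Arntl, a core clock factor gene, held 2 weak sites 44.2 kb apart (10.5 and 9.88, and 10.5 and 11.2).

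Genes of RNA turnover and of vessel growth were named by other leading sites. Zfp36l2 encodes an RNA-binding protein that promotes decay of messages with AU-rich elements. Its site, on chromosome 17 from 84112180 to 84112746, reached 85.8 and 51.2, the highest second-library value of any distal peak, and lay 71.5 kb from Zfp36l2 in a gap of 335 kb that ends at Haao. Of 4 ZFP36 family genes, Zfp36l2 alone had a distal summit within 100 kb, beside 2.32% of all protein-coding genes. Zfp36l2 was picked for naming with earlier results known, so this hit was set in advance. Tent4a, a non-canonical poly(A) polymerase gene, was 109 kb from a site at 44.0 and 33.2.

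Vegfa encodes the main angiogenic ligand of endothelial cells. Its site (chromosome 17, 46069997 to 46070673) had 53.2 and 40.7, was 677 bp wide and lay 38.0 kb from Vegfa and 40.7 kb from Mrps18a. A site inside Mcph1 (16.7 and 12.9) was 26.6 kb from Angpt2, an angiopoietin gene that lies within that host, and a site 156 kb from the semaphorin and VEGF co-receptor gene Nrp1 had 24.2 and 10.2. Of the 15 angiogenic ligands and receptors listed, Vegfa and Angpt2 were within 100 kb of a distal summit. No member of the LDL receptor family list (14 genes) was.

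The other leading distal sites were in or near genes of varied function. Inside genes were those of Reep3 (50.02 and 32.1), a protein that shapes the endoplasmic reticulum, Itsn1 (39.2 and 35.9), an endocytic scaffold, Diaph1 (34.4 and 31.8), an actin-nucleating formin, Zdhhc18 (41.0 and 27.0), a palmitoyltransferase, Jcad (52.6 and 25.2), a junction protein of endothelium, and C1qtnf7 (53.2 and 23.0). Outside were those named by Gm41291 (42.9 and 39.8), Bcas1 (44.0 and 34.7), Rgma (71.5 and 25.1), a BMP co-receptor gene, Olfm4 (39.0 and 25.7) and Slc22a23 (27.3 and 40.9), a transporter gene. At each of these sites both libraries gave 23.0 or more.

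For genes of satellite cell quiescence and activation the counts are to be read beside the 2.32% of all protein-coding genes within 100 kb of a distal summit, a share at which lists of this size can hold 0. Of 34 quiescence genes 0 had a distal summit within 100 kb, and of 28 myogenic and early activation genes 0 did, although Myc of that list was the nearest gene of 3 sites. The median distance to the closest distal summit was 4088 kb for the first list and 8084 kb for the second, beside 4766 kb for all protein-coding genes. Of 9 satellite cell markers 0 were within 100 kb, nor were any of 6 immune, 7 myofibre, or 6 Schwann cell and pericyte markers. Among 5 endothelial and 5 fibro-adipogenic markers, Pecam1 (65.3 kb) and Ly6a (88.8 kb) were. Peaks of a transcription factor do not check which cells were in the sample.

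Neighbouring distal sites were the exception. The nearest other Keap1-null-only summit was a median of 1432 kb away, with quartiles of 219 and 3537 kb. Within 10 kb of another such summit were 13 of the 226 distal peaks (5.75%), beside 10.2% of near peaks. Within 100 kb were 47 (20.8%), beside 17.5% of near peaks, and neither difference was tested. Within 50 kb were 34 distal peaks (15.04%), beside 15.7% of all Keap1-null-only peaks. The 34 fell into 19 groups, 17 pairs and 2 groups of 3, and 13 of the groups held distal peaks alone. The groups of 3 were those of Hdac4 and of Slc22a23, where 1 site was 12.4 kb inside the gene and the others 20.2 and 53.7 kb outside it.

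**Figure D4:**
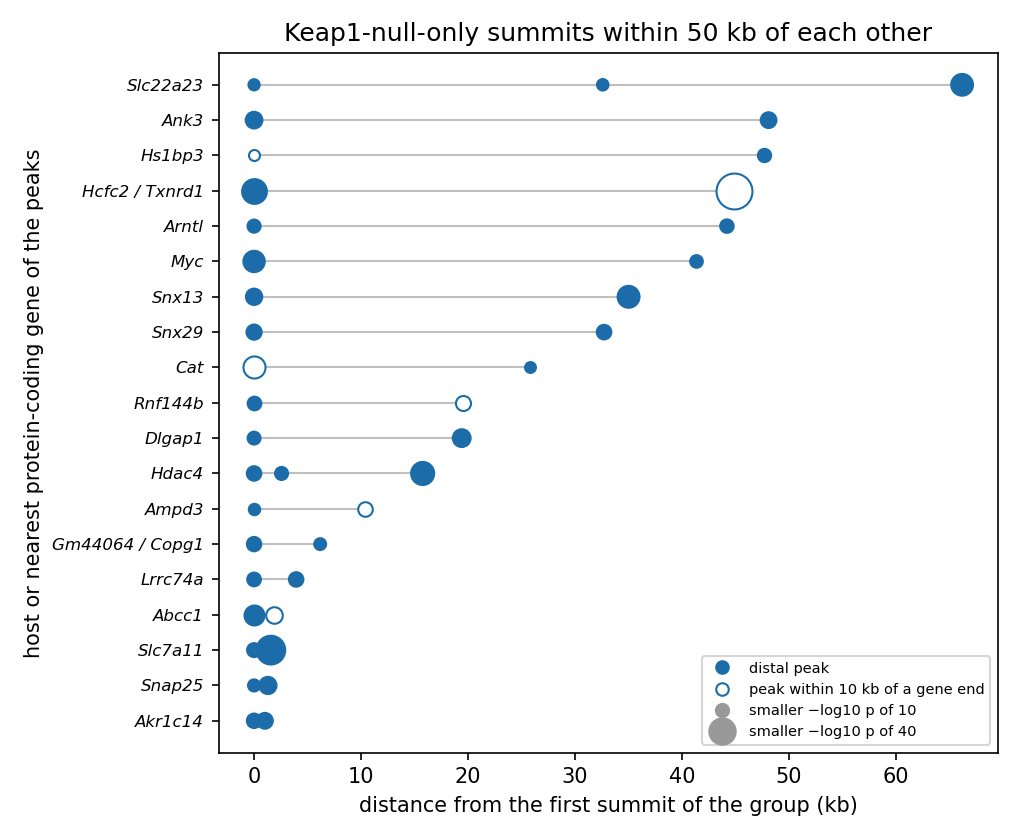
The 19 groups of Keap1-null-only summits within 50 kb of each other that hold a distal peak, each on its own line with the distance in kb from its first summit. Filled circles are distal peaks, open circles near peaks, and the area grows with the smaller −log10 p; pairs by Akr1c14, Snap25, Slc7a11 and Abcc1 are under 2 kb apart.

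The closest pairs were those of Akr1c14 (1.01 kb), Snap25 (1.29 kb), Slc7a11 (1.57 kb) and Abcc1 (1.84 kb). The pair by Snap25, a SNARE protein gene, lay in the non-coding gene Gm32659 33.5 and 34.8 kb from Snap25, at 24.2 and 17.03 and at 15.5 and 8.42. Of the 6 pairs of a distal and a near peak, the near one was stronger in both libraries by Hcfc2 and Txnrd1, by Cat and in Ampd3, and the distal one by Abcc1 and by Hs1bp3 (10.3 and 10.2 against 8.85 and 6.95). In Rnf144b the distal peak was stronger in the first library and the near one in the second (41.4 and 10.8 against 28.6 and 13.1). In Ampd3, an AMP deaminase gene, the distal peak had 20.7 and 7.49 and the near one 34.3 and 12.2. Peaks of a group share their libraries and may come from overlapping chromatin fragments where they are under 2 kb apart, so they are not independent sites.

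In all, 202 protein-coding genes were the host or nearest gene of a distal peak, and 21 of them of 2 or more. Besides those described, they included Pde4d, with 2 sites 534 kb apart (49.9 and 23.6, and 24.9 and 12.9), Ank3, an ankyrin gene (17.3 and 16.0, and 24.8 and 14.3), Snx13 (27.6 and 28.4, and 22.5 and 15.4), Snx29 (13.3 and 14.2, and 16.9 and 12.3), both sorting nexin genes, and Sgk1, a kinase gene (16.9 and 21.3, and 9.11 and 7.71). The sites of Snx13, 35.0 kb apart, were both outside it, and those of Pde4d, Ank3 and Snx29 inside.

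By the rule no distal peak had an Nrf2-null counterpart. The nearest Nrf2-null peak was a median of 7176 kb away and in no case closer than 8.88 kb, at the site of Gm40363. The deposited lists hold only peaks that passed, so the values of the Nrf2-null libraries at these sites are not known. Distal Nrf2-null peaks, 125 in number, had medians of 22.6 and 28.9 for the first and second library of that list and a median width of 393 bp; −log10 p depends on depth, so strength was not compared between the lists.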

How the data were processed

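Nrf2 ChIP and input libraries of Keap1-null and Nrf2-null satellite cells (2 per group) were made from cells fixed in 1% formaldehyde for 10 minutes with 1.5 µg of antibody, per the labels. The submitters' processing notes name MACS2 2.2.7.1, SAMtools 1.6, BWA 0.7.17 and Trim Galore 0.6.10 with build mm10; their settings, and those of the IDR step, were not found in the sources used here. The authors deposited 1 list of joint peaks per genotype, with −log10 p per library and −log10 IDR; columns for fold and q hold a placeholder. No peak in the Keap1-null list exceeds an IDR of 0.0499.

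Overlap needed 1 bp. Positions of 21627 protein-coding genes (49550 in all) came from the RefSeq table of GRCm38.p6, which gives no strand or exons, so a site inside a gene was not assigned to an exon or intron; starts, strand and sequences came from 32851 RefSeq promoter stretches. Density used the span from position 3000001 to the last gene end of each chromosome. A site was named by its host gene, or else by the gene with the nearest end. Sites named were those of Rxra, Zfp36l2, Vegfa and Lrp8, the 20 of lowest IDR, those of list genes, those within 50 kb of another or sharing a name, and the extremes of width, distance, depth and library ratio. Some sites that this rule names are not reported here. Genes at annotated starts, at the 10 kb limit, Irak1 and Rora were added after their values were seen. The members, the 15 lists (241 genes, all found) and this rule were chosen with earlier results of these data known. The Python 3.11.15 code (pandas 2.3.3, numpy 2.4.6, SciPy 1.17.1, matplotlib 3.10.9) was tested on simulated intervals. Alternatives are in the closing section.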

Additional observations from a re-analysis of the deposited data

How the results depend on the processing

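The counts, shares and medians were recomputed under 53 alternatives, counted over results and settings. In 42 of them the value stayed within the exact 95% interval of the reported one or, for counts, within 1.5 times. The number of distal peaks, 226, fell to 96 with a limit of 50 kb and to 104 when Keap1-null peaks above an IDR of 0.01 were dropped, as both settings leave fewer peaks by construction. With that IDR limit the median width was 458.5 bp and the median smaller −log10 p 15.3. The share inside protein-coding genes, 45.6%, was 52.9% with the ends of every gene counted and 58.4% with any gene as host. The median −log10 p was 16.0 in the first library alone and 11.9 in the second. The nearest other distal summit was a median of 2106 kb away, and 18 distal peaks (7.96%) had a neighbour within 20 kb, beside 13.1% of near peaks. The share of distal Nrf2-null peaks inside genes, 18.4%, was 26.7% without the chromosome 9 run of peaks, an alternative chosen after seeing the data.

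No paired analysis was possible because a joint list has no column that names a bench. Peaks could not be called again without a library, since the lists hold joint peaks only; the values of each library alone are those above. The planned shares of peaks with an antioxidant response element were not run, since sequence was at hand for promoter stretches only. With depth unknown, a site missing from the Nrf2-null list cannot be read as unbound.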

Other observations

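Distal peaks were spread unevenly over chromosomes. The highest densities were on chromosome 17, with 16 of the 226, or 23.6 per 100 Mb of its sequence over 10 kb from protein-coding gene ends, and chromosome 13, with 19, or 20.0 per 100 Mb. The genome-wide value was 11.1, and the lowest autosome was chromosome 19, with 2 distal peaks or 4.79 per 100 Mb. Chromosomes 17 and 13 held 24 and 23 of all Keap1-null peaks, and 2 and 3 of the Keap1-null-only peaks near a gene end. The leading sites of chromosome 17 were those of Zfp36l2 and Vegfa, and 8 of its 16 were inside genes. Chromosome X held 1 distal peak, 14.4 kb from Irak1, a kinase gene of innate immune signalling, at −log10 p of 14.6 and 8.28. That was 0.709 per 100 Mb, and chromosome X held 5 of all 469 Keap1-null and 3 of the 151 Nrf2-null peaks. The differences between chromosomes were not tested.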
